A study of Mus musculus with 4 samples.

Results

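The genes described here are 10 immediate early genes of mouse liver: Myc, Egr1, Egr2, Egr3, Ier2, Ier3, Klf6, Nr4a1, Dusp1 and Zfp36. They were chosen by symbol, and each was read from its probe set with the highest mean over the 4 arrays. All 10 had a named probe set, of 19505 genes with one. Liver RNA was measured on 4 whole-transcript microarrays, 1 for each of 4 groups, in a study of how regeneration proceeds when hepatocytes lose Mcu, the gene for the pore of the mitochondrial calcium uniporter. The values are log2 expression after RMA, which the authors deposited.

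All animals were male, of strain C57BL6J per the labels, and 10 to 12 weeks old at injection. Per the treatment protocol they carried floxed Mcu alleles, but the genotype label of the knockdown arrays conflicts with it over which gene was floxed. The arrays are called knockdown here after their titles. Control liver (WT) had received AAV8-TBG-Null, a virus without a transgene, and carries the genotype label Wild type. Knockdown liver (KD) had received AAV8-TBG-Cre, in which the TBG promoter drives Cre recombinase in hepatocytes, so the other cells of the liver keep Mcu. Partial hepatectomy removed 70% of the liver 5 weeks after injection. The remnant was sampled at 30 h, and the 0 h groups are labelled as controls. RNA came from pools of 4 animals per genotype according to the series text, so an array is 1 pooled sample here. No group was operated on without removal of liver.

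Immediate early genes are switched on without new protein synthesis when growth factors, cytokines or stress reach a cell, mostly through serum response factor, CREB and related factors already bound at their promoters. In liver they are best known from the first hours after hepatectomy, when hepatocytes leave quiescence. Myc and the Egr, Klf6 and Nr4a1 proteins are transcription factors that pass the signal on. Dusp1 and Zfp36 end it, by dephosphorylating MAP kinases and by promoting decay of short-lived mRNAs.

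Promoter windows from RefSeq (GRCm38.p6, 250 bases before to 50 after each start) were listed for 6 of the 10 genes, and none for Myc, Egr1, Egr3 or Ier2. They are shown because these genes share a class of inducible control while their measured values diverged. Each line reads 5′ to 3′ toward the start, and capitals mark letters that match a motif searched on both strands. The motifs were the CArG box bound by serum response factor, the cAMP response element TGACGTCA and its core TGACG, AP-1 TGANTCA, the E-box CACGTG, the Egr site GCGNGGGCG, STAT TTCNNNGAA and the GC box GGGCGG. The core lies inside the full element and reads CGTCA where it is on the other strand, and an Egr site can overlap a GC box. The 30 bases of Egr2 surround 1 CArG box (chr10:67537789-67537818, plus strand). They come from 1 of 5 windows of Egr2, chosen because it held both a CArG box and the core. The motifs in that line are thus there by choice. The other lines hold the 150 bases before the start, for Zfp36 (chr7:28379229-28379378, minus strand), Dusp1 (chr17:26508473-26508622, minus), Nr4a1 (chr15:101266696-101266845, plus), Klf6 (chr13:5861339-5861488, plus) and Ier3 (chr17:35821563-35821712, plus).
Egr2: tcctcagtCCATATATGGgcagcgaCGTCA
Zfp36: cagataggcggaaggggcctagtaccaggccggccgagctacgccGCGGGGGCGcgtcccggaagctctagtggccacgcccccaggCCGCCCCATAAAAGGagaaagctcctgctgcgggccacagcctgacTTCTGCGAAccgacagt
Dusp1: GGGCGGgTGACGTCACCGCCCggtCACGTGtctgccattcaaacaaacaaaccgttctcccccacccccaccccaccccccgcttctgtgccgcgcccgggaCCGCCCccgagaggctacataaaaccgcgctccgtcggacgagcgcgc
Nr4a1: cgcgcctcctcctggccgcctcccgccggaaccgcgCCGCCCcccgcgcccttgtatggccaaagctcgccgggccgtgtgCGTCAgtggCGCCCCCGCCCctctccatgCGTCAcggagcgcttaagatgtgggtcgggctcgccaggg
Klf6: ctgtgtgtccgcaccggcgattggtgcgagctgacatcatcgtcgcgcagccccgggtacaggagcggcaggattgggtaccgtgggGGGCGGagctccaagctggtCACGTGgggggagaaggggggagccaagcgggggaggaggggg
Ier3: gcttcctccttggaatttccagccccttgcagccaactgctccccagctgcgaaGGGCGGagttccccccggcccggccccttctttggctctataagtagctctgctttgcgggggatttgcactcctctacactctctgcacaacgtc

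A CArG box stood in windows of 2 of the 6 genes, Egr2 and Zfp36, against 1.63% of all 32851 windows. In Egr2 it was CCATATATGG, 72 bases before the start of the window chosen for its line. Of its 5 listed starts, 4 had a CArG box in their window. These were not separate boxes: overlapping windows held the same CCATATATGG, at other distances from their starts, and the remaining window with a box held CCTTTTTTGG. In Zfp36 it was CCATAAAAGG, 58 bases before the start. The full cAMP response element occurred in Dusp1 alone of the 6, against 1.79% of all windows. The core TGACG occurred in Dusp1, Egr2 and Nr4a1, against 20.8% of windows, and Nr4a1 held 4 copies, 2 of them in the bases shown. The windows of Klf6 and Ier3, which were at least 2-fold higher at 30 h in knockdown liver, held neither a CArG box nor that core. Myc and Egr1 were also past 2-fold there but had no window, so motifs cannot be set against that response. The E-box occurred in Klf6, Dusp1 and Egr2, against 7.15% of windows. The GC box occurred in all 6 genes, against 35.7%, and was the only match in Ier3. These shares are per window, and Egr2 was listed with 5 windows where each of the others had 1. No AP-1 match was found in the windows of the 6 genes. A match in the letters does not show that a factor was bound.

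Mcu itself read 4.77 and 4.30 on the control arrays of 0 h and 30 h. The knockdown arrays read 2.83 and 2.63, lower at both times as their titles imply. With 1 array per group no value below has an error, no test was run, and each difference has no replicate check. The comparisons share arrays: control liver at 0 h, for example, enters both the control response and the genotype difference at 0 h. In its free-text description the array titled knockdown 30 h is said to be 1 h after surgery, while title and time label both say 30 h. The descriptions of all 4 arrays also speak of ethanol-fed liver. Immediate early genes can differ greatly between those times, so every statement on knockdown liver at 30 h rests on the title. On that array the replication helicase gene Mcm6 read 6.23 against 3.88 at 0 h, cyclin E2 (Ccne2) 4.94 against 2.45, and the proliferation marker Mki67 4.75 against 3.20. In control liver these genes read 7.60 at 30 h against 2.67 at 0 h, 6.51 against 2.01 and 6.18 against 3.91. The array titled knockdown 30 h thus lay below control 30 h in all 3, with differences of -1.37, -1.57 and -1.43. The time of that array was not tested by these values.

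**Figure D1:**
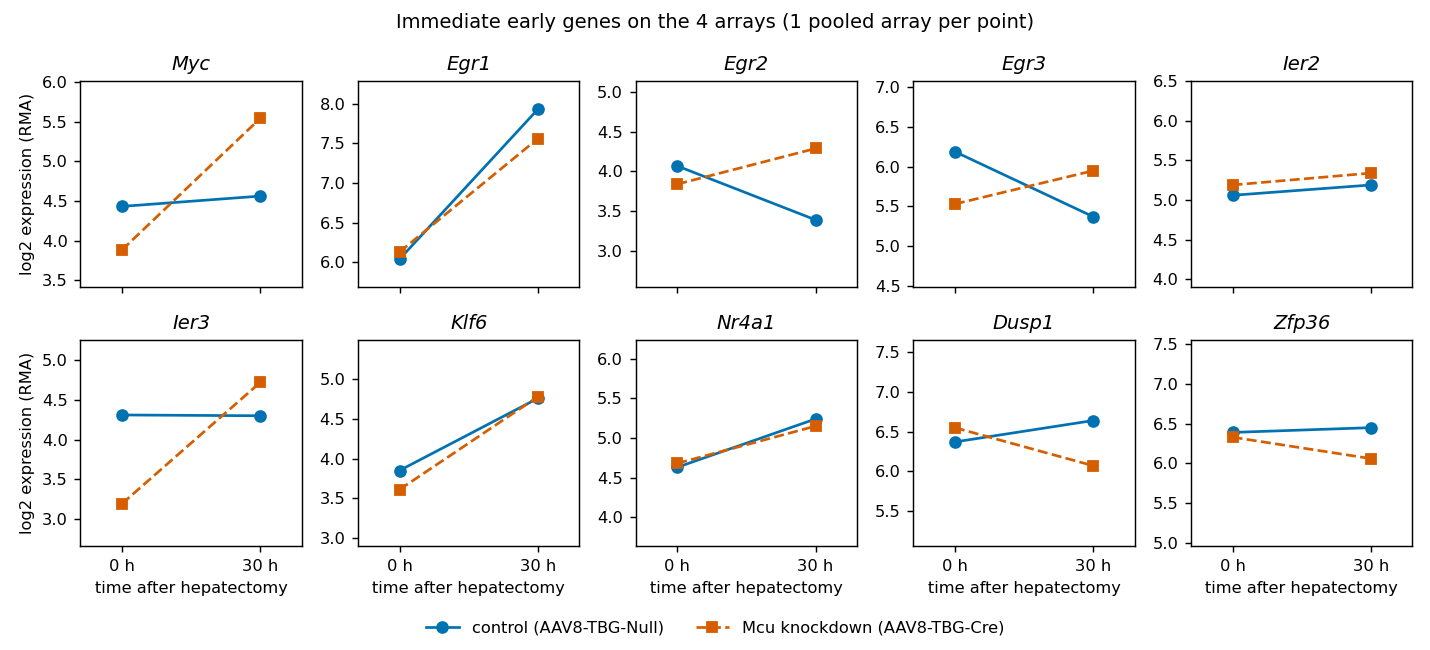
Log2 expression (RMA) of each gene at 0 h and 30 h, 1 pooled array per point, in control (circles, solid lines) and Mcu knockdown liver (squares, dashed lines). All panels span the same log2 range; Myc and Ier3 were lowest in knockdown liver at 0 h and highest in knockdown liver at 30 h, while Egr1 was higher at 30 h in both genotypes.

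Myc, a transcription factor that drives growth and ribosome production, was higher after hepatectomy in knockdown liver and nearly level in control liver. It read 4.43 in control liver at 0 h, 4.56 in control liver at 30 h, 3.88 in knockdown liver at 0 h and 5.54 in knockdown liver at 30 h. The order from low to high was knockdown 0 h, control 0 h, control 30 h, knockdown 30 h, and the middle pair lay 0.13 apart. The control response, 30 h minus 0 h, was 0.13 on the log2 scale. The knockdown response was 1.66, or 3.16-fold, rank 90 from the highest of 19505 genes. The difference of the responses was 1.53, made up of a value lower by 0.55 in knockdown liver at 0 h (-0.55) and higher by 0.98 at 30 h. The 0.98 lay just under 2-fold and became 1.05 after quantile normalization.

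The partners and antagonists of Myc did not share its pattern. Of 11 measured genes, 3 were higher at 30 h in knockdown liver, beside 46.2% of bright genes, and 6 in control liver, beside 58.2%. The medians were -0.12 and 0.08, beside -0.04 and 0.10 for bright genes. Bright genes are the 9759 in the upper part of the table, with a mean log2 value of at least 3.83, the median over genes. Max, the obligate partner of Myc, read 5.22, 5.48, 5.59 and 5.47 in control 0 h, control 30 h, knockdown 0 h and knockdown 30 h. It was picked for its role. Mxi1, which represses Myc targets with Max, read 5.17, 4.70, 5.22 and 3.99 in the same order, so it was lowest on the array where Myc was highest. Its knockdown response was -1.23, against -0.47 in control liver. Mga read 4.11, 5.00, 4.89 and 4.50 in the same order, with a difference of responses of -1.28. It was the 1 gene of the list past 2-fold in that difference, where 7.43% of bright genes were at least 2-fold downward. Mlx, a partner of the glucose-sensing factor ChREBP, had responses of 1.19 in control and 0.53 in knockdown liver. After quantile normalization or cyclic loess its control response was under 2-fold, 0.95 at the lowest.

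Target genes of Myc in ribosome production and growth were mostly higher at 30 h in both genotypes. In control liver 26 of 30 measured genes were above 0, where 58.2% of bright genes were, with a median of 0.57 and 8 genes at least 2-fold higher, as were 5.98% of bright genes. In knockdown liver 27 of 30 were above 0, against 46.2% of bright genes, with a median of 0.39 and 1 gene at least 2-fold higher, as were 2.64% of bright genes. Eif4e, the cap-binding translation factor, read 5.24, 6.77, 5.50 and 6.27 in control 0 h, control 30 h, knockdown 0 h and knockdown 30 h. Odc1, which starts polyamine synthesis, read 5.62, 7.06, 5.48 and 6.22, and the nucleolar protein gene Nop58 read 4.83, 6.21, 4.58 and 5.38. These 3 genes had control responses of 1.53, 1.44 and 1.38 and knockdown responses of 0.77, 0.74 and 0.80.

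At 30 h, where Myc was higher in knockdown than in control liver, 22 of its 30 targets were lower and 8 higher, beside 37.8% of bright genes higher. The count of higher targets ran from 5 to 11 over the 3 other scalings. Their median difference was -0.27, against -0.11 for bright genes, and ran from -0.36 to -0.19 over those scalings. The transferrin receptor gene Tfrc, the 1 target at least 2-fold higher in the knockdown response, was among the 8 that were higher. It read 3.88, 4.02, 3.31 and 4.71 in control 0 h, control 30 h, knockdown 0 h and knockdown 30 h. Its knockdown response was 1.40 and its control response 0.14, close to those of Myc. Tfrc was among the 3 genes nearest to Myc by the shape of the same 4 values. The measure is the root mean square distance between 4 values, each centred on its gene's mean, searched over 9449 bright genes. Fbxl12, a subunit of a ubiquitin ligase, lay nearest at 0.094, followed by Abhd10 at 0.116 and Tfrc at 0.120.

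Egr1, a zinc finger factor that responds quickly to growth signals and injury, was higher after hepatectomy in both genotypes. It read 6.04 in control liver at 0 h, 7.93 in control liver at 30 h, 6.13 in knockdown liver at 0 h and 7.56 in knockdown liver at 30 h. Both 30 h arrays lay above both 0 h arrays. The control response was 1.89, or 3.71-fold, and the knockdown response 1.43, or 2.69-fold. Their ranks from the highest were 132 and 168. The knockdown response was smaller by 0.46 (difference of responses -0.46), and by 0.19 (-0.19) after cyclic loess. At 0 h the genotypes lay 0.09 apart, a difference that turned to -0.0013 after cyclic loess.

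The 3 genes nearest to Egr1 were Ppargc1a, a coactivator of gluconeogenesis and mitochondrial genes, at 0.049, the sulfotransferase gene Sult1a1 at 0.056, and the salt-inducible kinase gene Sik1 at 0.060. Sik1 read 4.42, 6.30, 4.57 and 6.08 in control 0 h, control 30 h, knockdown 0 h and knockdown 30 h. Ppargc1a read 4.88, 6.65, 4.86 and 6.29. Each was higher by more than 2-fold at 30 h in both genotypes, which follows from their choice by likeness to Egr1.

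Egr2, the family member best known from nerve myelination and lymphocytes, ran the opposite way in the 2 genotypes. It read 4.07 and 3.39 in control liver at 0 h and 30 h, and 3.84 and 4.29 in knockdown liver. The control 30 h array was the lowest and the knockdown 30 h array the highest. Egr2 was dim: its mean of 3.90 lay just above the 3.83 that defines bright genes, and its control 30 h value lay below that. The control response was -0.68 and the knockdown response 0.45, neither at 2-fold, and their difference was 1.13. This difference stayed between 1.04 and 1.06 under the 3 other scalings. At 30 h Egr2 was higher by 0.90 in knockdown liver, and at 0 h lower by 0.23 (-0.23).

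Egr3, a close relative of Egr2, had the same order of signs on its brightest probe set, but its 3 probe sets disagreed. The brightest read 6.19 and 5.37 in control liver at 0 h and 30 h, and 5.53 and 5.95 in knockdown liver. The middle one read 5.30, 5.20, 5.26 and 5.34, nearly level over the 4 arrays. The dimmest read 3.09, 2.58, 2.93 and 2.70, below the median of gene means throughout, and was lower at 30 h in both genotypes. The difference of responses was 1.24, 0.18 and 0.28 on the 3 probe sets. The identifiers of the brightest and middle probe sets begin with TSUnmapped, and that of the dimmest does not. The statement on Egr3 thus rests on 1 probe set. Over the 55 genes with several probe sets, the median gap in this difference between the brightest and another probe set was 0.39.

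**Figure D2:**
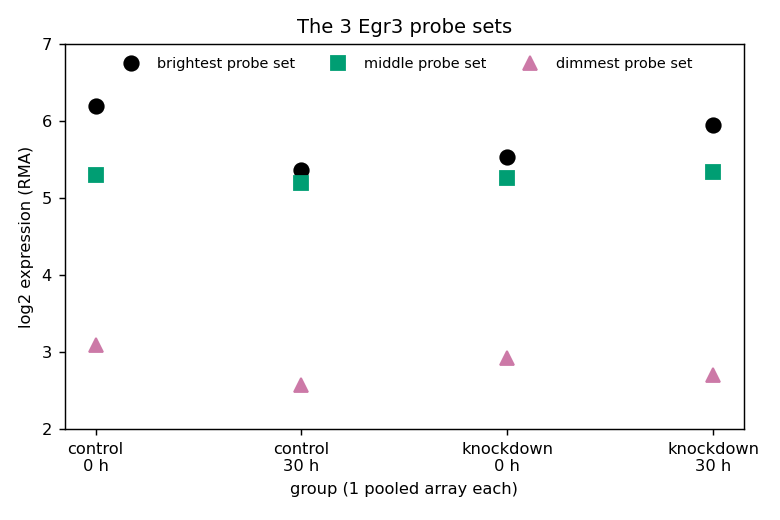
Log2 expression (RMA) of the 3 Egr3 probe sets on the 4 arrays, 1 pooled array per group. The brightest probe set ran from 6.19 to 5.37 in control and from 5.53 to 5.95 in knockdown liver, while the middle one stayed between 5.20 and 5.34.

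The corepressors and target genes of the Egr factors showed little shared movement. Of bright genes, 58.2% were above 0 in the control and 46.2% in the knockdown response, and 5.98% and 2.64% were at least 2-fold higher. Of 10 measured genes, 6 were above 0 in the control response and 4 in the knockdown response. Their medians were 0.11 and -0.06, beside 0.10 and -0.04 for bright genes. The control median ran from 0.05 to 0.13 over the 3 other scalings, and its count from 5 to 7. No bright gene of the list differed at least 2-fold in any comparison. The 2 that did were below that level, F3, the tissue factor that starts coagulation (3.91, 4.07, 3.84 and 3.06 in control 0 h, control 30 h, knockdown 0 h and knockdown 30 h), and Cd44, an adhesion receptor (2.51, 3.80, 3.66 and 3.64). Both were picked after their values were seen. Egr4, the remaining Egr gene, read 4.40, 5.13, 4.98 and 5.39 and was higher at 30 h in both genotypes, by 0.73 and 0.41.

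Ier3, a stress-induced regulator of survival and ERK signalling, showed the largest genotype difference of the 10 genes at 0 h. It read 4.31 and 4.30 in control liver at 0 h and 30 h, and 3.19 and 4.72 in knockdown liver. The knockdown 0 h array was the lowest and the other 3 lay between 4.30 and 4.72. The lowest value was below 3.83, the mean that defines bright genes. At 0 h Ier3 was lower by 1.12 in knockdown liver (-1.12, 2.17-fold), rank 128 from the lowest of 19505 genes. The control response was -0.01, a sign that turned under median centring or cyclic loess. The knockdown response was 1.53, or 2.89-fold, and the difference of responses 1.54. At 30 h the genotypes differed by 0.42.

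The genes nearest to Ier3 were Creld2, a secreted protein of the endoplasmic reticulum stress response, at 0.137, Samd1 at 0.140 and Kctd15 at 0.149. Creld2 read 6.97, 6.71, 5.80 and 7.05, lowest in knockdown liver at 0 h, which follows from its choice by likeness to Ier3. Ier2, a nuclear early gene that shares only its naming with Ier3, was nearly level. It read 5.06, 5.19, 5.19 and 5.34, and its responses were 0.13 in control and 0.15 in knockdown liver.

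Klf6, a zinc finger factor induced in injured liver, was higher at 30 h in both genotypes by similar amounts. It read 3.85 and 4.76 in control liver at 0 h and 30 h, and 3.61 and 4.78 in knockdown liver. Both 30 h arrays lay above both 0 h arrays, and the 30 h arrays lay 0.02 apart. The control response of 0.91 lay just under 2-fold and the knockdown response of 1.17 just over it, and they differed by 0.26. Nearest to Klf6 were Adamts1, a secreted protease, at 0.051, Lrrc59 at 0.057 and Btg2, an antiproliferative early gene, at 0.065. Btg2 read 5.03, 5.78, 4.68 and 5.80 in control 0 h, control 30 h, knockdown 0 h and knockdown 30 h. None of the 16 other measured Klf genes differed at least 2-fold in any comparison, and 7 of them were above 0 in each response.

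Nr4a1, an orphan nuclear receptor that raises gluconeogenic genes in liver, was higher at 30 h in both genotypes without reaching 2-fold. It read 4.63 and 5.24 in control liver and 4.68 and 5.15 in knockdown liver. The responses were 0.61 and 0.47, and the genotypes lay within 0.09 of each other at both times. Of its relatives, Nr4a2 was dim on all arrays, from 1.87 to 2.81, and Nr4a3 read 3.39, 2.66, 2.64 and 2.96. Among glucose genes, G6pc, which releases glucose from the liver, read 8.26, 9.15, 8.80 and 8.50, with a difference of responses of -1.19 that came to -0.94 after cyclic loess. The muscle enolase gene Eno3 was lower at 30 h in both, by 0.95 (-0.95) and 1.25 (-1.25).

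Dusp1, the phosphatase that switches off p38 and JNK, was lower at 30 h than at 0 h in knockdown liver, while its control response depended on the scaling. It read 6.37 and 6.64 in control liver at 0 h and 30 h, and 6.55 and 6.07 in knockdown liver. The knockdown 30 h array was the lowest. The control response of 0.27 came to 0.034 under quantile normalization and 0.080 under cyclic loess. The knockdown response was -0.48, and the difference of responses of -0.75 came to -0.48 under quantile normalization at its smallest. Dusp1 did not differ by 2-fold in any comparison. Some other dual specificity phosphatases differed by more. Of 11 measured, Dusp3, Dusp8 and Dusp6 passed 2-fold upward in control liver (3 genes, beside 5.98% of bright genes). In knockdown liver Dusp14, Dusp8 and Dusp6 did (3 genes, beside 2.64%). Dusp3 read 5.16, 6.90, 6.09 and 6.39, Dusp8 read 3.52, 5.08, 3.55 and 4.61, and Dusp6, the feedback phosphatase of ERK, read 5.79, 6.95, 5.75 and 6.77. The knockdown response of Dusp3 was 0.30, against 1.74 in control liver.

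Dusp14 shared its lowest and its highest array with Myc, but was lower at 30 h in control liver, where Myc was nearly level. It read 5.12, 4.66, 4.30 and 5.40, so it was lowest in knockdown liver at 0 h and highest in knockdown liver at 30 h. Its responses were -0.46 and 1.10. Of 12 genes of ERK feedback, 1 was at least 2-fold higher in control liver, beside 5.98% of bright genes. In knockdown liver it was also 1, beside 2.64%, in both cases Dusp6. The Dusp6 responses of 1.16 and 1.02 came to 0.95 and 0.97 at their lowest over the 3 other scalings.

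Zfp36 encodes tristetraprolin, which binds AU-rich elements and speeds mRNA decay. It read 6.39 and 6.45 in control liver at 0 h and 30 h, and 6.33 and 6.06 in knockdown liver, a span of 0.39 over the 4 arrays. The control response of 0.06 turned negative under quantile normalization and cyclic loess (-0.16 at the lowest), and the knockdown response was -0.27. Of 13 measured relatives and targets, 4 were above 0 in the control and 6 in the knockdown response, beside 58.2% and 46.2% of bright genes. Only 4 of the 13 were bright, and none of these differed at least 2-fold. The 2 that did were dim: Il1b read 1.98, 3.03, 2.57 and 2.66, and Ptgs2 read 3.37, 2.0, 2.97 and 2.52.

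**Figure D3:**
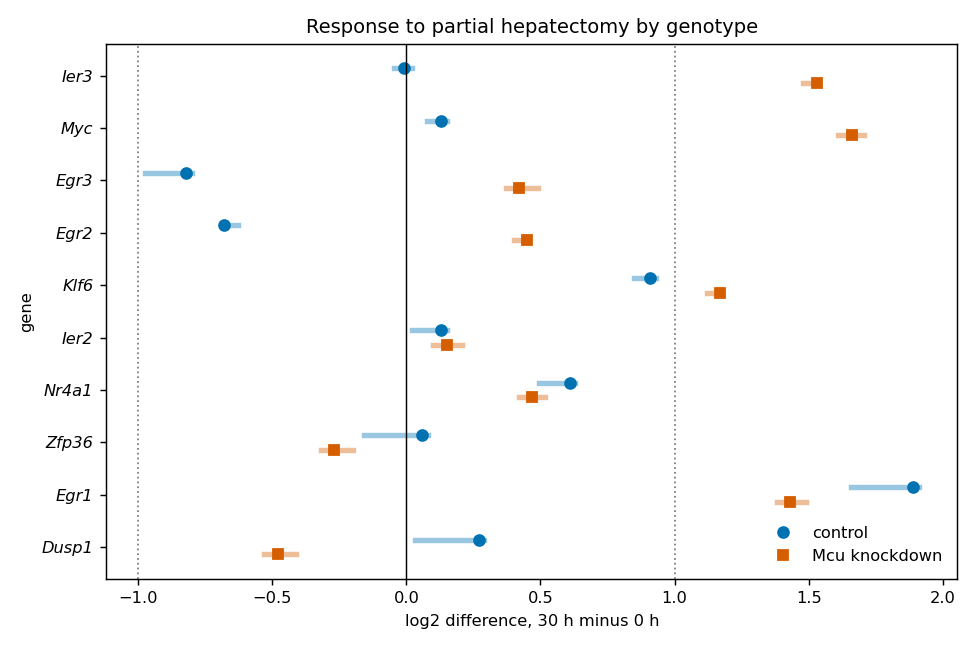
Log2 difference, 30 h minus 0 h, of each gene in control (circles) and Mcu knockdown liver (squares), 1 array per group. Bars span the values over the deposited scale and 3 other scalings, dotted lines mark 2-fold, and genes are ordered by the difference of responses; Ier3 (1.54) and Myc (1.53) had the largest.

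Counted together, 1 of the 10 genes, Egr1, was at least 2-fold higher at 30 h in control liver, where 5.98% of bright genes were. In knockdown liver 4 of 10 were at least 2-fold higher, Myc, Egr1, Ier3 and Klf6, where 2.64% of bright genes were. At 1.5-fold in either direction the counts were 5 in control liver, where Egr2 and Egr3 were lower, and 4 in knockdown liver. No share of bright genes was computed at 1.5-fold. The median of the 10 was 0.13 in control liver, beside 0.10 for bright genes, and 0.46 in knockdown liver, beside -0.04. At 0 h Ier3 was at least 2-fold lower in knockdown liver, where 0.635% of bright genes were. At 30 h no gene of the 10 differed at least 2-fold between genotypes, where 3.30% of bright genes did, and the nearest were Myc at 0.98 and Egr2 at 0.90. The difference of responses was at least 2-fold upward for 4 of 10, Myc, Ier3, Egr3 and Egr2, where it was for 3.24% of bright genes. No member had one at least 2-fold downward, where 7.43% did. With Egr3 read from another of its probe sets, 3 of 10 were past it.

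Crossing of the genotypes, lower in knockdown liver at 0 h and higher at 30 h, held for 5 of the 10 genes and for 16.5% of bright genes. The 5 were Myc, Egr2, Egr3, Ier3 and Klf6, and the 0.02 by which Klf6 was higher at 30 h turned negative under median centring and cyclic loess. Ier2, Nr4a1, Zfp36, Egr1 and Dusp1 did not cross this way. Responses of opposite sign in the 2 genotypes held for 5 of 10 genes, Egr2, Egr3, Ier3, Dusp1 and Zfp36, and for 41.4% of bright genes. The control responses of Ier3, Zfp36 and Dusp1 were small, and those of Ier3 and Zfp36 changed sign under other scalings.

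Early genes outside the 10 were also split. Of 19 AP-1 and other early transcription factors, 14 were above 0 in control and 17 in knockdown liver, beside 58.2% and 46.2% of bright genes. The medians were 0.47 and 0.41, beside 0.10 and -0.04. At least 2-fold higher were 2 in control liver, Fos and Cebpd, beside 5.98%, and 2 in knockdown liver, Cebpd and Atf3, beside 2.64%. Atf3 is dim and was picked after its values were seen. Fos read 3.78 and 4.86 in control liver at 0 h and 30 h, and 4.13 and 4.35 in knockdown liver. Fosb, its close relative, ran the other way, with 4.36 and 4.06 in control and 4.49 and 5.37 in knockdown liver. The responses were 1.08 and 0.22 for Fos, and -0.30 and 0.88 for Fosb. Cebpd, a factor of the acute phase, read 4.81, 6.22, 5.63 and 6.64 and was higher at 30 h in both genotypes.

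Of 29 other early response regulators, 6 were at least 2-fold higher and 2 lower in control liver, and 3 were higher and 1 lower in knockdown liver. Of bright genes, 5.98% were higher and 1.61% lower in control liver, and 2.64% were higher and 2.74% lower in knockdown liver. Tnfaip3, the deubiquitinase that ends NF-kappaB signalling, had the pattern of Myc, with 3.45, 3.62, 3.37 and 4.99 in control 0 h, control 30 h, knockdown 0 h and knockdown 30 h. Socs3, an inhibitor of cytokine signalling, read 3.30, 4.95, 5.37 and 5.11, so control liver at 0 h stood apart as the lowest. Plk3, a stress-responsive kinase, read 3.92, 6.61, 5.21 and 6.92, and the clock repressor Per1 read 3.85, 5.41, 4.27 and 5.24. Both were higher at 30 h in each genotype.

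Of 8 measured serum response and cAMP factors upstream of these genes, 1 was at least 2-fold higher in control liver, beside 5.98% of bright genes, and none in knockdown liver, beside 2.64%. The 1 was Elk3, a partner of serum response factor, which is dim and was picked after its values were seen. It read 3.42, 4.69, 3.22 and 3.04 in control 0 h, control 30 h, knockdown 0 h and knockdown 30 h, so control liver at 30 h stood apart as the highest. Its control response was 1.27, and at 30 h it was lower in knockdown liver by 1.65 (-1.65). The difference of responses was at least 2-fold downward for 2 of the 8, Elk3 (-1.45) and Atf1 (-1.13), beside 7.43% of bright genes. Srf, which binds CArG boxes, read 4.46, 5.00, 4.84 and 5.12 and was picked for its role. Atf1 read 4.62, 5.08, 4.78 and 4.11, lowest in knockdown liver at 30 h. Among 14 growth factors and receptors no gene was 2-fold different in either response. Il6ra, the interleukin 6 receptor subunit, had a difference of responses of -1.05 (-0.87 after cyclic loess).

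**Figure D4:**
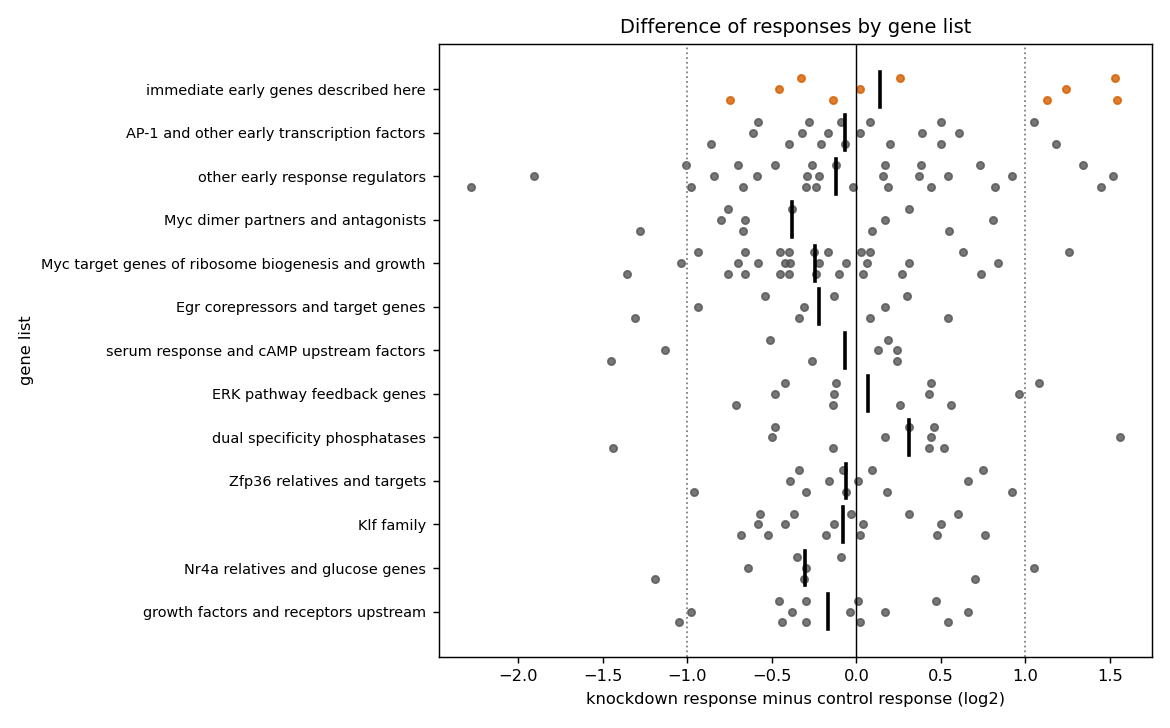
Knockdown response minus control response (log2) for each gene of the 10 (top, orange) and of 12 other gene lists, with 1 point per gene, the median as a bar and 2-fold as dotted lines. Of the 10 genes, 4 lie to the right of 2-fold and none to the left.

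In bulk liver RNA, fewer cells of a type and less RNA per cell cannot be told apart, and several of these genes are also expressed in other liver cells. Hepatocyte markers, 9 of 10 measured, had summed linear intensities between 30166 and 32747 on the 4 arrays. The 6 of 8 measured cholangiocyte markers summed to 74.6, 82.1, 66.9 and 94.8 in control 0 h, control 30 h, knockdown 0 h and knockdown 30 h. The 9 of 10 measured neutrophil markers summed to 75.8, 76.3, 73.6 and 87.6. Both sums followed the order of Myc, but no single cholangiocyte marker did, and of the neutrophil markers Cxcr2 alone did. Only 2 and 1 of their genes were bright. Kupffer cell markers (10 of 10) summed to 425.6, 670.5, 577.2 and 561.7, sinusoidal endothelial markers (10 of 10) to 363.3, 316.9, 440.3 and 263.4, and stellate cell markers (10 of 10) to 275.6, 265.4, 338.9 and 255.5. The 9 of 10 measured T, NK and B cell markers summed to 72.5, 75.1, 82.3 and 74.8. RMA assigns no value of 0, so absence of a marker cannot be read. The part of these cell types in the values of the 10 genes was not tested.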

How the data were processed

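Per the submitters' processing notes, the authors made the deposited log2 values with RMA in Affymetrix Expression Console. Parameters, versions and build of that step: not given in the sources used here. RMA equalises the arrays and so removes any shift common to all genes. The table holds 22206 probe sets with 2 decimals, of which 19572 carry 1 gene symbol (all matched to a gene of assembly GRCm38.p6, used for names only), 0 several and 2634 none. Precision is limited by the number of arrays.

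A gene took its probe set with the highest mean. The 5 comparisons were differences of log2 values, and genes were counted at 2-fold. No test was run. The counting was tested on simulated data. The members and lists were chosen with earlier results of these data known. Named genes outside the 10 were those with the largest differences among bright genes at least 2-fold different, at most 4 per list, and the 3 nearest in shape to each gene spanning at least 1; others are marked as picked for a role or after their values were seen, or, for Mcu, Mcm6, Ccne2, Mki67, Egr4, Nr4a2 and Nr4a3, named as checks or relatives. Of 172 list genes 167 were measured. From the labels, 1 item is left unreported. Other scalings were median centring, quantile normalization and cyclic loess (limma 3.58.1, R 4.3.3). Python 3.11.15 did the rest.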

Additional observations from a re-analysis of the deposited data

Results flagged for a closer look

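Of the 10 genes, 5 had responses of opposite sign in the 2 genotypes, as did 41.4% of bright genes. The difference was not tested, since each response rests on 2 arrays. Ier3 had a control response of -0.01 and a knockdown response of 1.53, a difference of 1.54, and the control value is too near 0 to have a sign. Egr3 had -0.82 and 0.42, a difference of 1.24, on its brightest probe set. Egr2 had -0.68 and 0.45, a difference of 1.13. Dusp1 had 0.27 and -0.48, a difference of -0.75, with a control value of 0.034 under quantile normalization. Zfp36 had 0.06 and -0.27, a difference of -0.33, with a control value whose sign turned under 2 of 3 other scalings.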

How the results depend on the processing

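Median centring, quantile normalization and cyclic loess left the counts of the 10 genes past 2-fold within 1.5 times, except between genotypes at 30 h, where quantile normalization gave 1 (Myc) in place of 0. At 1.5-fold in either direction the counts were 5 for the control response in place of 1, 4 for the knockdown response, as at 2-fold, 2 between genotypes at 0 h, 2 at 30 h, and 5 for the difference of responses. At 3-fold they were 1 for the control response, 1 for the knockdown response, 0 between genotypes at 0 h and 0 for the difference of responses. The contrast of 1 gene in control with 4 in knockdown liver thus holds at 2-fold and not at 1.5-fold or 3-fold. No share of bright genes was computed at 1.5-fold or 3-fold. Restricting to bright genes changed no count, since all 10 are bright by their mean. Single values of Egr2, Ier3 and Klf6 lay below the level that defines bright genes. Of 50 differences, 6 changed sign under some scaling, none of them at 2-fold. Reading Egr3 as the mean of its probe sets gave a difference of responses of 0.57, and its middle and dimmest probe sets, chosen after seeing the data, gave 0.18 and 0.28. Among bright genes the median difference of responses was -0.18 as deposited and -0.03 after cyclic loess or quantile normalization. No paired analysis was possible because each group has 1 array. Leaving out a replicate was not possible for the same reason.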

Other observations

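Ier5 and Rhob were among several early genes outside the 10 with knockdown values lower at 0 h and higher at 30 h, Tnfaip3 and Atf3 included. Such values held for 16.5% of bright genes. Other early genes crossed in the opposite direction, Fos and Per1 among them. Knockdown minus control was 0.35 at 0 h and -0.51 at 30 h for Fos, and 0.42 and -0.17 for Per1. The early genes outside the 10 were not counted by direction of crossing. Ier5 and Rhob were picked after their values were seen. Ier5, a stress-induced relative of Ier2, read 5.37 and 4.35 in control liver at 0 h and 30 h, and 4.20 and 4.70 in knockdown liver. Rhob, a small GTPase gene induced by growth factors and stress, read 5.19 and 4.64 in control liver, and 4.16 and 4.95 in knockdown liver. In each, control liver at 0 h was the highest array and knockdown liver at 0 h the lowest, so their order differed from that of Myc and Ier3. The tumour necrosis factor gene Tnf and Il6 were dim on all 4 arrays, from 2.41 to 2.94 and from 1.45 to 2.52.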
